A study of Mus musculus with 14 samples.

Results

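The nuclear genes for the subunits of respiratory complex III, together with the gene for cytochrome c, were followed in brown adipose tissue of mice that lack Lrpprc in brown fat cells. The rule that defines them is by function and uses no expression value: 9 nuclear complex III subunits (Uqcrc1, Uqcrc2, Uqcrfs1, Cyc1, Uqcrb, Uqcrq, Uqcrh, Uqcr10 and Uqcr11) and the somatic cytochrome c gene, Cycs. That is 10 of the 35275 genes in the deposited table. All 10 were expressed well above the limit set for testing, so none was left out. RNA was sequenced from homogenized brown adipose tissue of 14 C57BL/6 mice aged 8 weeks. Knockouts carried floxed Lrpprc alleles and a Ucp1-Cre transgene (LrpprcFF Ucp1-Cre), and controls carried the floxed alleles without Cre (LrpprcFF). At room temperature, 22 °C, there were 4 knockouts and 4 controls, and at thermoneutrality, 30 °C, there were 3 of each. Cre driven by Ucp1 deletes Lrpprc in cells that express Ucp1, and the other cells of the tissue keep it. Each library came from an animal with an identifier of its own. The identifiers of 22 °C control replicates 3 and 4 begin with R and those of the other 12 animals with E, and the labels do not say what the letter marks.

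Complex III, also called the cytochrome bc1 complex, takes electrons from ubiquinol in the inner mitochondrial membrane, pumps protons and passes the electrons to cytochrome c, which carries them to complex IV. Its catalytic subunits are cytochrome b, encoded by the mitochondrial gene mt-Cytb, cytochrome c1 (Cyc1) and the Rieske iron-sulfur protein (Uqcrfs1). Uqcrc1 and Uqcrc2 encode the large core proteins on the matrix side, and the other genes encode small subunits, among them the hinge protein Uqcrh, which sits beside cytochrome c1. LRPPRC binds and stabilises messenger RNAs made from mitochondrial DNA, and complex III takes 1 subunit from that genome and the others from the nucleus. Brown adipocytes are rich in mitochondria and use the respiratory chain to make heat.

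The promoters of the members are shown because the members moved together in the knockout, and were searched for the letters that known regulators of respiratory genes recognise. RefSeq (GRCm38.p6) gave a window from 250 bases before to 50 bases after the start site for 6 of the 10 members (Uqcrc1, Uqcrfs1, Uqcrh, Uqcr10, Uqcr11 and Cycs). These positions are on GRCm38.p6 and not on the build named for the deposited values, mm9. Searched on both strands were, for nuclear respiratory factor 1, its full site (GCGC and TGCGC with any base between them) and the shorter CATGCGC, TGACGTCA and TTACGTCA for cAMP response elements, CCGGAAGT for ETS factors such as the nuclear respiratory factor GABP, and TCAAGGTCA for oestrogen-related receptors. The 200 bases before the start site of 4 members follow, 5′ to 3′ on the strand of the gene, with matches in capitals. They lie at chr6:50566570-50566769 (Cycs, minus strand), chr13:30545317-30545516 (Uqcrfs1, minus strand), chr4:116075071-116075270 (Uqcrh, minus strand) and chr10:80406822-80407021 (Uqcr11, minus strand).
Cycs: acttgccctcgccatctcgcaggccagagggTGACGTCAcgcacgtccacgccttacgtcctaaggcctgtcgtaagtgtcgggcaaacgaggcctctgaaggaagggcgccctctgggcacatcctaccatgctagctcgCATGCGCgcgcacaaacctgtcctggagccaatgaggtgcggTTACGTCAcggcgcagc
Uqcrfs1: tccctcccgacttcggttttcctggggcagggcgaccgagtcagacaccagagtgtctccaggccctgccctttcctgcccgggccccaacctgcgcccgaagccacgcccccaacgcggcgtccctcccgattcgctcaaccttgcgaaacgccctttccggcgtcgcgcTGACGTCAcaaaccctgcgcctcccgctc
Uqcrh: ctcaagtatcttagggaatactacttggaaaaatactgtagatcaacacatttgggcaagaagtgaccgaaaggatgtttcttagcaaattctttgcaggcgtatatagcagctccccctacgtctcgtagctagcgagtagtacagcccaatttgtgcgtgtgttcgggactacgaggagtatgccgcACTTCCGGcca
Uqcr11: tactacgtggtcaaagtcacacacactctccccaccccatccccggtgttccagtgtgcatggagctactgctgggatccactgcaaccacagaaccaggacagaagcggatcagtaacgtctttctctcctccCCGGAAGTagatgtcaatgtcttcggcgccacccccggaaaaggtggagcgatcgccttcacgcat
In Cycs the capitals mark TGACGTCA, CATGCGC and TTACGTCA, in Uqcrfs1 TGACGTCA, in Uqcrh CCGGAAGT read on the opposite strand and in Uqcr11 CCGGAAGT. No motif was shared by all 6 windows. CATGCGC was in 3 of the 6 (Cycs, Uqcr11 and Uqcrc1) and in 3.91% of all 32851 windows. TGACGTCA was in 2 of the 6 and in 1.79% of all windows, and CCGGAAGT in 2 of the 6 and in 3.89%. In Uqcr11 the CCGGAAGT match begins 66 bases before the start site and the CATGCGC match 3 bases before it. The latter runs past the start site, so it is not in capitals above. Uqcrc1 was the 1 member with the full nuclear respiratory factor 1 site, which begins 5 and 30 bases after its start site and which 4.6% of all windows hold. It overlaps CATGCGC at the later place. TTACGTCA was in the Cycs window and in 0.499% of all windows. TCAAGGTCA was in none of the 6 and in 0.423% of all. The Uqcr10 window held none of the motifs. A match describes letters in a window and does not show binding.

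Depth recovered from the steps between low values was 15750000 to 21470000 fragments per library. Each member was covered by 1950 to 35400 fragments in every library, so counting error was small against the group differences called below. Lrpprc, the targeted gene, was at 11.3 ± 1.35 FPKM in 22 °C knockouts and 36.6 ± 11.0 in 22 °C controls (SD, n = 4 each), and an exact permutation test, two-sided, gave p = 0.0286, the lowest that 4 against 4 can give. It was at 8.03 ± 1.99 in 30 °C knockouts and 29.7 ± 1.23 in 30 °C controls (SD, n = 3 each), with p = 0.1 by the exact permutation test, the lowest that 3 against 3 can give. Transcripts from mitochondrial DNA took 14.41 to 20.9% of the length-weighted signal in controls and 1.24 to 3.41% in knockouts. FPKM divides by all reads, so libraries were rescaled on nuclear genes before the comparisons below. "Scaled FPKM" means that rescaled value, and "log2 fold change" the difference of group means of log2(scaled FPKM + 1). A gene was called when its adjusted p was under 0.05, by limma with Benjamini-Hochberg adjustment over 13079 genes. The limma p-values set a group difference against the spread between animals within groups, estimated over all 14 libraries.

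All 10 members were abundant, with Cyc1 highest and Cycs lowest in nearly every library. Among the genes tested, the highest member of a library stood at percentile 99.51 to 99.74, and Cycs at percentile 96.1 to 98.5. Cyc1 was the highest member in 13 of 14 libraries, and Uqcr11 in the other, 22 °C control replicate 4. Cycs was the lowest in 13 of 14, and Uqcrh in the other, 30 °C knockout replicate 2. In 22 °C controls the mean scaled FPKM ran from Uqcr11 (1040 ± 193.8; SD, n = 4) and Uqcr10 (1010 ± 169.4) through Cyc1 (1005 ± 37.5), Uqcrc1 (883 ± 64.6), Uqcrq (767 ± 124), Uqcrh (677 ± 104), Uqcrfs1 (661 ± 105), Uqcrb (603 ± 101) and Uqcrc2 (589.7 ± 163) to Cycs (300.2 ± 39.8). In that order the 1 gap between neighbours with ranges that did not overlap was the one above Cycs. The order was better resolved in 30 °C controls, where Cyc1 (1208 ± 102; SD, n = 3) lay above Uqcrc1 (967 ± 107), and Uqcr10 (809 ± 66.6) above Uqcrq (582 ± 54.5), without overlap. Cyct, the cytochrome c isoform of testis, was at most 0.44 scaled FPKM in any library.

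**Figure D1:**
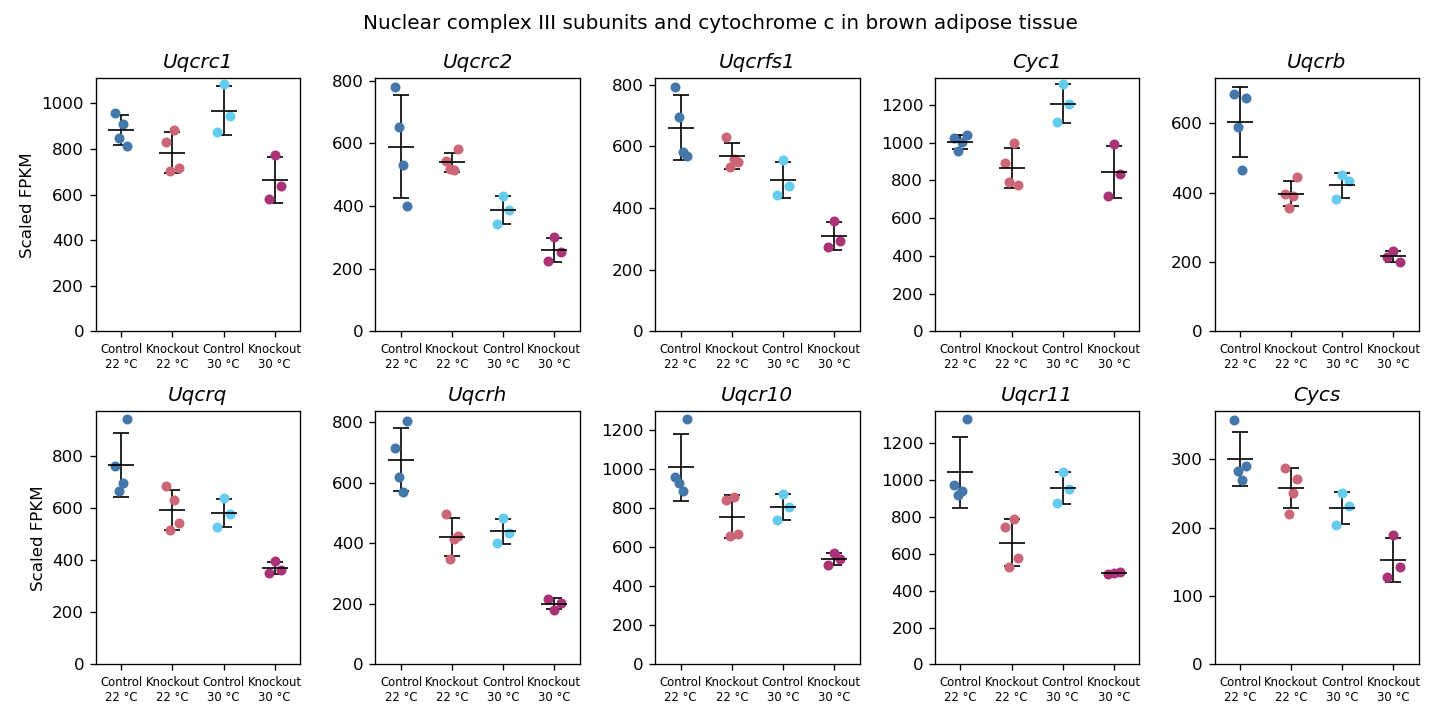
Scaled FPKM of the 10 members in each animal (points), with the group mean and SD (black bars), for controls and knockouts at 22 °C (n = 4 each) and 30 °C (n = 3 each). The 30 °C knockouts lie below the 30 °C controls for every member, and at 22 °C the ranges separate for Uqcrb, Uqcrh, Uqcr10 and Uqcr11.

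The mitochondrial partner of these genes fell in knockouts at both temperatures, and far more than the nuclear subunits did. mt-Cytb, which encodes cytochrome b, was at 44570, 42290, 30160 and 41000 scaled FPKM in the 22 °C controls and at 3043, 3808, 2658 and 2876 in the 22 °C knockouts. The ranges are far apart, and the log2 fold change was -3.67 (SE 0.287, adjusted p = 7.99e-06). At 30 °C it was 31180, 35170 and 35710 in controls and 3501, 1558 and 5069 in knockouts, with a log2 fold change of -3.49 (SE 0.331, adjusted p = 9.79e-05). In FPKM as deposited, knockouts had 9.73% of the control mean at 22 °C (exact two-sided permutation p = 0.0286) and 12.1% at 30 °C (exact two-sided permutation p = 0.1). Quantile normalization, which limits the most abundant transcripts, gave -1.74 at 22 °C and -1.23 at 30 °C, and the latter was no longer called.

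The ratio of mt-Cytb to the geometric mean of the 9 nuclear subunits does not depend on how libraries are scaled. It was 50.5 ± 5.8 in 22 °C controls and 5.24 ± 1.32 in 22 °C knockouts (SD, n = 4 each). It was 53.1 ± 3.07 in 30 °C controls and 8.94 ± 4.88 in 30 °C knockouts (SD, n = 3 each). The ratio was lower without overlap in knockouts at both temperatures, which 0.497% of tested genes showed at 22 °C and 1.18% at 30 °C for their own ratio to the 9 subunits. The 9 subunits were themselves lower in knockouts, which raises the ratio of other genes, so nothing is read from these shares. The 3 knockouts at 30 °C were spread from 3.73 to 13.4, wider than the 4.16 to 7.16 of those at 22 °C.

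**Figure D2:**
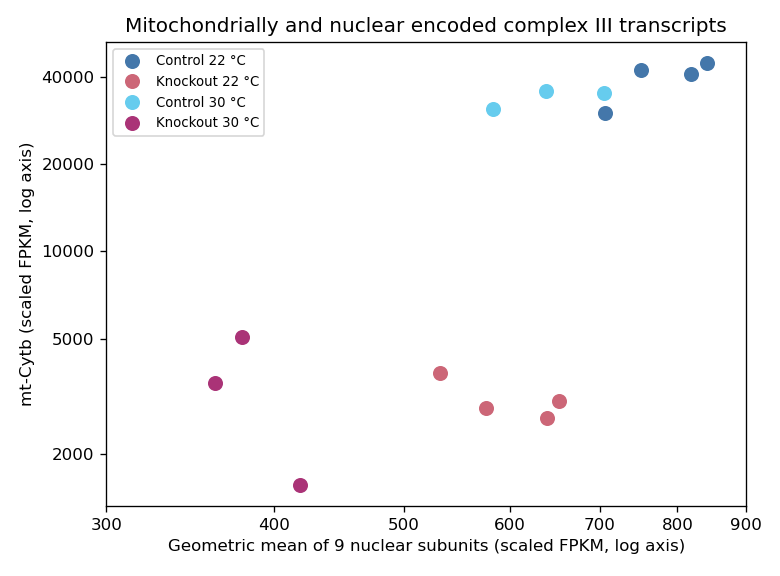
mt-Cytb against the geometric mean of the 9 nuclear complex III subunits, both in scaled FPKM on log axes, with 1 point per animal. Knockouts lie between 1558 and 5069 for mt-Cytb and controls between 30160 and 44570, whereas along the horizontal axis the 22 °C knockouts (532.1 to 653.2) and 30 °C controls (582.4 to 705.5) overlap.

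At 22 °C the small subunits Uqcrh, Uqcr11 and Uqcrb were called lower in knockouts. The small subunits Uqcr10 and Uqcrq, the catalytic and core subunits and Cycs did not pass the test. Of the 10 members, 3 were called lower and 0 higher, against 1.06% of all tested genes called lower, 0.91% called higher and 1.97% called in either direction. All 10 had a log2 fold change below 0, with a median of -0.29, beside 0.00235 over all tested genes. The ranges of knockouts and controls did not overlap for 4 members, all lower in knockouts (Uqcrh, Uqcr11, Uqcrb and Uqcr10), against 4.53% of tested genes that were lower without overlap.

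Uqcrh, the acidic hinge protein, was at 714.2, 620.1, 569.5 and 805.2 scaled FPKM in 22 °C controls and at 497.9, 347.4, 415.3 and 424 in 22 °C knockouts. Every knockout lay below every control. Its log2 fold change was -0.68 (SE 0.135, adjusted p = 0.023), so knockouts had 62.2% of the control mean. Uqcrb, a small matrix-side subunit associated with ubiquinone binding, was at 683.8, 590.7, 465.9 and 673.5 in controls and at 397.2, 356.2, 391.5 and 444 in knockouts. The lowest control, replicate 3, was close to the highest knockout, replicate 4. The log2 fold change was -0.59 (SE 0.127, adjusted p = 0.0337). Uqcr11, a very small membrane subunit, was at 971.1, 919.2, 942.2 and 1329 in controls and at 747, 530.2, 788.7 and 575.1 in knockouts. Control replicate 4 stood well above the other controls, and the groups did not overlap with or without it. The log2 fold change was -0.66 (SE 0.151, adjusted p = 0.043).

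The other small subunits, Uqcr10 and Uqcrq, were at 75.0% and 77.4% of the control mean at 22 °C, with adjusted p of 0.142 and 0.18 by limma. Uqcr10 was at 888.6 to 1260 scaled FPKM in controls and 657.3 to 860.7 in knockouts, so its groups did not overlap. None of the core and catalytic subunits was called. The log2 fold change was -0.18 for Uqcrc1 (95% confidence interval -0.44 to 0.09), -0.09 for Uqcrc2 (-0.46 to 0.29), -0.21 for Uqcrfs1 (-0.49 to 0.08) and -0.22 for Cyc1 (-0.48 to 0.04). Cycs, the electron carrier, was at 358.4, 282.9, 269.2 and 290.5 in controls and at 287.9, 220, 251 and 271.8 in knockouts. These ranges overlap, and its log2 fold change was -0.22 (95% confidence interval -0.52 to 0.08, adjusted p = 0.487 by limma). These intervals do not show that the levels were alike. The order of the members also rested on the controls used: without the 2 controls with R identifiers, Uqcrc2 was at -0.40 (adjusted p = 0.15) and Uqcrfs1 at -0.39 (adjusted p = 0.161), beyond Uqcr10 at -0.33 and Uqcrq at -0.27, and 2 members were called, Uqcrb and Uqcrh.

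The 22 °C calls were near the threshold. Without control replicate 4, and likewise without control replicate 1 or knockout replicate 2, 0 of the 10 members were called by limma. Without control replicate 2 or knockout replicate 1 there was 1. Calls over all 13079 tested genes also fell in these fits, from 258 to 152, 103, 70, 127 and 97 in that order. The median of the members stayed between -0.36 and -0.24 with each animal left out in turn. In FPKM as deposited, where the median of all tested genes was 0.24 in knockouts against controls, 0 members were called and their median was 0.01, which is 0.23 below that of all genes.

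At 30 °C all 10 members were lower in knockouts, and again Uqcrh, Uqcrb and Uqcr11 fell furthest. The 9 that were called included core, catalytic and small subunits and Cycs. Of the 10 members, 9 were called lower and 0 higher, against 5.28% of all tested genes called lower, 8.82% called higher and 14.1% called in either direction. The median log2 fold change was -0.62, beside 0.06 over all tested genes. Knockouts lay below controls without overlap for all 10 members, against 14.6% of tested genes. The summed level of the 10 members was 6490 ± 615 scaled FPKM in controls and 4060 ± 399 in knockouts (SD, n = 3 each), and at 22 °C it was 7540 ± 623 and 5840 ± 578 (SD, n = 4 each).

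Uqcrh was at 402, 484.2 and 435.8 scaled FPKM in 30 °C controls and at 217.4, 181.1 and 202.6 in 30 °C knockouts. Knockouts thus averaged 45.5% of controls, with a log2 fold change of -1.13 (SE 0.156, adjusted p = 0.000947). Uqcrb was at 381, 449.7 and 434.3 in controls and at 215.6, 232.6 and 200.6 in knockouts, a log2 fold change of -0.96 (SE 0.147, adjusted p = 0.00192). Uqcr11 was at 872, 1045 and 947.8 in controls and at 490.5, 492.7 and 500.7 in knockouts, a log2 fold change of -0.94 (SE 0.174, adjusted p = 0.00465). The 3 knockouts agreed closely for this gene, with an SD of 5.36, which is no larger than counting error, so nothing is read from it. These 3 genes were called in the 13 alternative fits run and with each of the 6 animals left out in turn; a further demand for a log2 fold change of at least 1 was met by Uqcrh alone.

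Uqcrfs1, the Rieske protein, had 63.1% of the control mean at 30 °C (log2 fold change -0.67, SE 0.152, adjusted p = 0.0122). Uqcrq had 63.5% (log2 fold change -0.65, SE 0.15, adjusted p = 0.0127). Uqcr10 had 66.9% (-0.58, adjusted p = 0.0264), Uqcrc1 68.7% (-0.55, adjusted p = 0.0227) and Cyc1 70.1% (-0.52, adjusted p = 0.0268). Cycs was at 204.5, 250.9 and 231.8 in controls and at 127.7, 189 and 141.9 in knockouts. Its highest knockout lay below its lowest control, and the log2 fold change was -0.60 (SE 0.161, adjusted p = 0.0268). Uqcrc2, the core protein 2 gene, was the member that missed the threshold, at 342.8, 432.4 and 388.7 in controls and 225, 300.9 and 254.4 in knockouts. Its log2 fold change of -0.58 was like that of the others, its SE of 0.202 was the largest of the 10, and its adjusted p was 0.0738. Leaving out 1 animal cut the 9 calls to as few as 3, without control replicate 2 or knockout replicate 1. It cut them to 5 without control replicate 3 or knockout replicate 3. Calls over all tested genes also fell in these fits, from 1845 to 907, 877, 1276 and 968 in that order. In FPKM as deposited and after quantile normalization 3 members were called, and with libraries set to the same nuclear total 5.

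**Figure D3:**
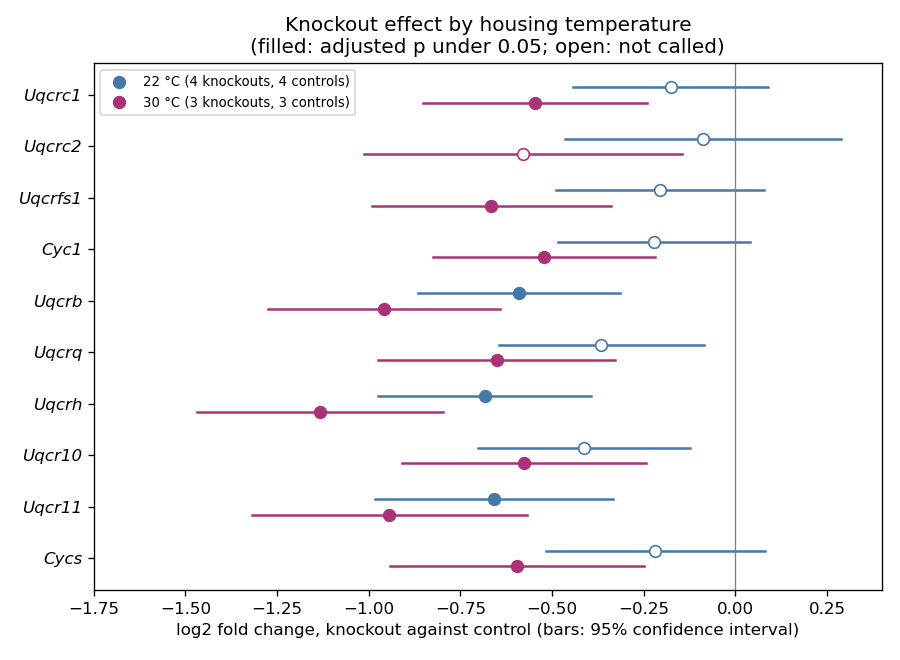
log2 fold change of each member in knockouts against controls at 22 °C and 30 °C, with 95% confidence intervals from the limma fit over 14 libraries; filled points had an adjusted p under 0.05. All 20 points lie below 0, 3 of the 22 °C points and 9 of the 30 °C points are filled, and Uqcrh is the lowest at both temperatures.

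Markers of other cell types moved with genotype at 30 °C. Of 12 macrophage markers 11 were called higher in 30 °C knockouts, and their summed level was 749 to 2300 scaled FPKM, against 141 to 481 in 30 °C controls, 115 to 243 in 22 °C knockouts and 68.8 to 103 in 22 °C controls. Of 6 fibroblast or preadipocyte markers 5 were called higher in 30 °C knockouts (summed level 397 to 799 against 209 to 244). Of 10 brown adipocyte markers 5 were called lower, with a summed level of 7470 to 9210 against 13800 to 17300. Of all tested genes, 8.82% were called higher and 5.28% lower at 30 °C, and 0.91% and 1.06% at 22 °C. At 22 °C the brown adipocyte sum was 14400 to 19100 in knockouts and 18700 to 24900 in controls, but the list was divided: 5 markers lay lower and 5 higher, 1 was called in each direction, and the median log2 fold change was 0.12. No marker of these lists was at 0 throughout a group. Whether this bears on the members' decrease was not tested. In RNA from whole tissue, fewer brown adipocytes and less of a transcript per brown adipocyte cannot be told apart. Markers of skeletal muscle, a tissue also rich in respiratory complexes, summed to between 24.3 and 14700 with wide spread inside groups. With their level as a covariate, an analysis added after the data were seen, 2 members were called at 22 °C and 7 at 30 °C, all lower. Of the 13079 tested genes, 229 and 1427 were then called in either direction.

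The decrease in knockouts was larger at 30 °C than at 22 °C for all 10 members, but the difference did not pass the test for any of them. The knockout effect at 22 °C minus that at 30 °C was 0.16 to 0.49 on the log2 scale, with a median of 0.37. By limma, 0 of 13079 genes were called for this difference, 0% of those tested. At an unadjusted p under 0.05 there were 2 of the 10 members and 13.0% of all genes. The 2 were Uqcrfs1 (0.46, 95% confidence interval 0.03 to 0.89, adjusted p = 0.357) and Uqcrh (0.45, 95% confidence interval 0.01 to 0.89, adjusted p = 0.38). Animals at 22 °C and 30 °C also differed in sex-linked transcripts (given below). In this comparison of knockout effects, temperature and that difference cannot be told apart.

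The ratio of a subunit to the geometric mean of all 9 is free of library scaling, and that of Uqcrh was lower in knockouts at both temperatures. Its log2 ratio was -0.21 ± 0.13 in 22 °C controls and -0.52 ± 0.12 in 22 °C knockouts (SD, n = 4 each), a difference of -0.31 without overlap. At 30 °C it was -0.54 ± 0.01 in controls and -0.95 ± 0.24 in knockouts (SD, n = 3 each), a difference of -0.40 without overlap. Each subunit is part of the mean it is compared with, and the 9 log2 ratios of a library sum to 0, so these ratios describe the balance and are no test. At 30 °C the ratios of Uqcrb (by -0.23) and Uqcr11 (by -0.21) were also lower without overlap. Those of Cyc1 (by 0.21), Uqcrc1 (0.19), Uqcr10 (0.15), Uqcrc2 (0.15) and Uqcrq (0.08) were higher without overlap, which 75.6% of tested genes were. Uqcrfs1 overlapped. The hinge protein gene stood at 0.519 of the subunit mean in 30 °C knockouts and at 0.686 in 30 °C controls. The gene for cytochrome c1, which the hinge protein touches in the complex, stood at 2.18 and 1.88 times that mean. Most of the distance between these genes was thus already there in controls.

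**Figure D4:**
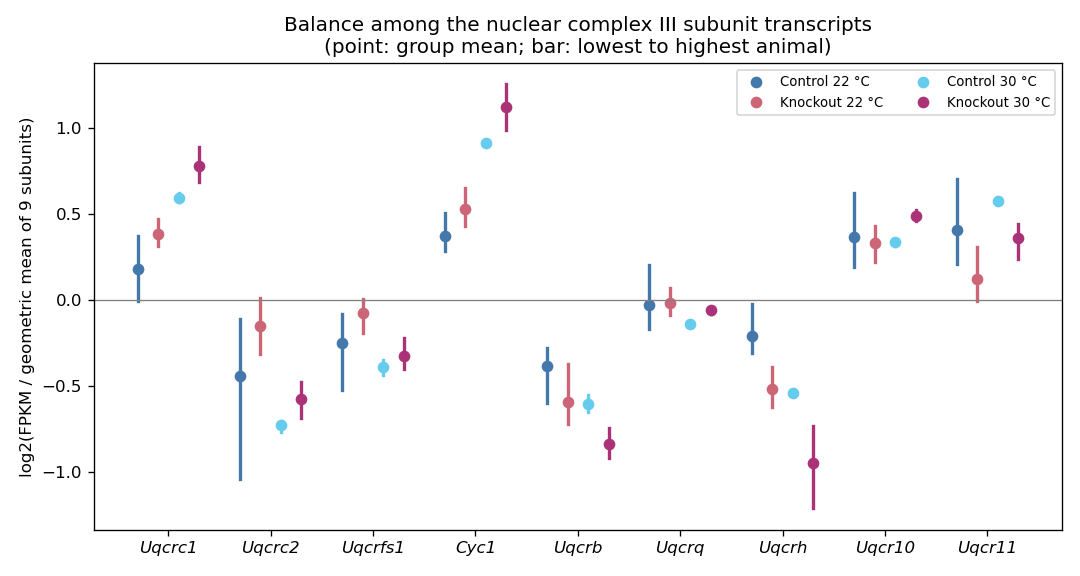
log2 ratio of each nuclear complex III subunit to the geometric mean of all 9 in the same library, as group mean (point) and range over animals (bar; n = 4 at 22 °C, n = 3 at 30 °C). Uqcrh lies lower in knockouts than in controls at each temperature, from -0.21 to -0.52 at 22 °C and from -0.54 to -0.95 at 30 °C, without overlap.

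The members fell into short and long transcripts, and at 22 °C, with all controls kept, the 5 short ones had the 5 lowest log2 fold changes. Annotated lengths were 434 to 535 nt for the 5 small subunits (Uqcr10, Uqcr11, Uqcrh, Uqcrq and Uqcrb) and 1363 to 3123 nt for Uqcrfs1, Cyc1, Uqcrc1, Uqcrc2 and Cycs. The 3 genes called at 22 °C were all short. Over the 10 members, Pearson's r between log2 length and the log2 fold change was 0.84 at 22 °C and 0.63 at 30 °C, and Spearman's rho 0.79 and 0.41, a description over 10 genes that share the same libraries. The r and rho at 22 °C used all controls, and the order of the members there rested on them. Without the 2 controls with R identifiers, the long Uqcrc2 (-0.40) and Uqcrfs1 (-0.39) lay below the short Uqcr10 (-0.33) and Uqcrq (-0.27). Without 22 °C control replicate 4 alone, Uqcrfs1 also lay below Uqcrq. At 30 °C the short Uqcr10 (-0.58) and Uqcrq (-0.65) lay within the range of the long members. Over 13001 tested genes, which are not independent, Spearman's rho with length was 0.218 at 22 °C and 0.154 at 30 °C. Among abundant nuclear genes other than the members, the median log2 fold change of 73 short genes (400 to 600 nt, mean of at least 50 scaled FPKM) was -0.29 at 22 °C and -0.47 at 30 °C, and that of 611 long ones (1300 to 3200 nt) was -0.05 and -0.13. Of the short ones, 16.4% were called at 22 °C and 45.2% at 30 °C, against 3.27% and 25% of the long ones. Only the 10 members were left out of these sets, and subunits of other respiratory complexes were not. Transcript length and respiratory function were therefore not separated here. In 22 °C control replicate 4 the short genes stood 0.36 above the long ones on the log2 scale relative to its group, and in the other 13 libraries this was -0.13 to 0.095. After each library's trend with length and GC content was removed, an analysis added after the data were seen, 3 members were called at 22 °C and 9 at 30 °C. Of the 13079 tested genes, 227 and 1784 were then called in either direction.

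**Figure D5:**
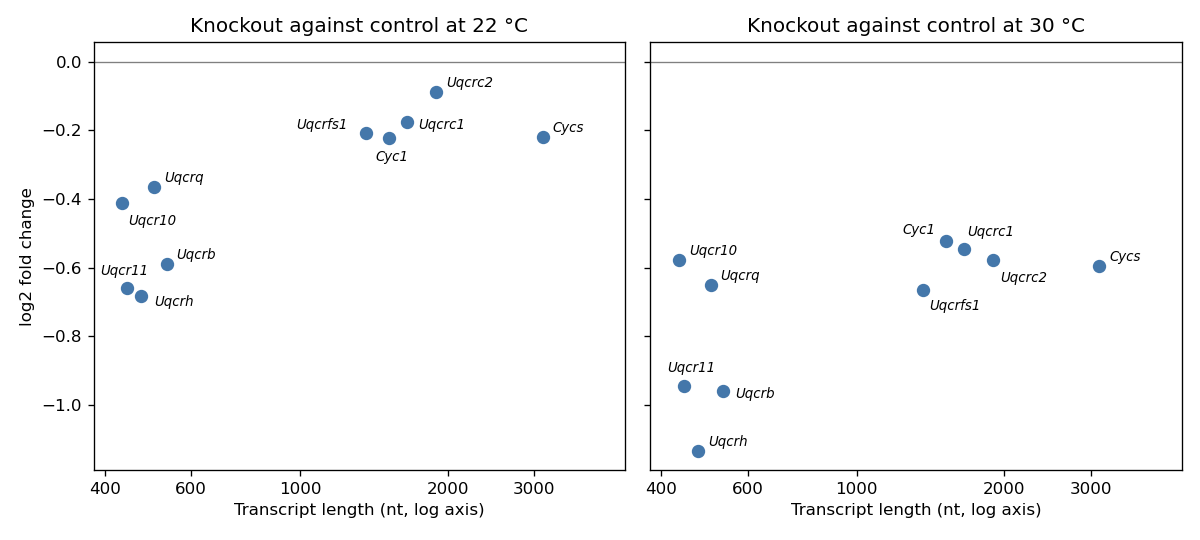
log2 fold change of the 10 members in knockouts against controls, at 22 °C and 30 °C, against annotated transcript length in nucleotides on a log axis. Values are from the limma fit over 14 libraries. The 5 transcripts of 434 to 535 nt include the 3 lowest points at each temperature (Uqcrh, Uqcr11 and Uqcrb), and the 5 longer ones lie between -0.22 and -0.09 at 22 °C and between -0.67 and -0.52 at 30 °C.

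Several members were higher at 22 °C than at 30 °C in both genotypes, Uqcrh most of all in controls, and temperature also went with other properties of the libraries. In controls 5 of the 10 members were called higher at 22 °C than at 30 °C (Uqcrh, Uqcrc2, Uqcrb, Uqcrfs1 and Uqcrq), against 18.2% of all genes. In knockouts 7 were called higher (those 5, Cycs and Uqcr10), against 21.8%. No member was called lower, against 20.6% of all genes in controls and 29.4% in knockouts. Called or not, the log2 fold change was above 0 for 8 of the 10 members in controls and for 10 in knockouts. Uqcrh at 22 °C was at 154% of its 30 °C mean in controls (log2 fold change 0.61, SE 0.146, adjusted p = 0.00635) and at 210.0% in knockouts (1.06, SE 0.146, adjusted p = 0.000142). Cyc1 and Uqcrc1 had log2 fold changes of -0.26 (adjusted p = 0.128) and -0.13 (adjusted p = 0.467) in controls. Leaving out 1 animal cut the 5 calls in controls to 1 without 30 °C control replicate 1. There were 2 without 30 °C control replicate 3 or 22 °C control replicate 1, and 3 without 22 °C control replicate 2. Calls over all tested genes also fell in these fits, from 5072 to 3796, 3783, 3828 and 3895 in that order. Cycs was at 29.9 ± 3.64% of the Cyc1 level in 22 °C controls and 18.9 ± 0.44% in 30 °C controls (SD, n = 4 and 3), and at 30.0 ± 4.48% and 18.0 ± 1.06% in knockouts. All 8 animals at 22 °C were at 25.1% or above, and all 6 at 30 °C at 19.2% or below. The transcripts differ in GC content, 40.8% for Cycs and 55.7% for Cyc1, and the temperature effect followed GC content across genes (below). After removal of each library's length and GC trends, the log2 fold change in controls was -0.051 for Cycs and 0.046 for Cyc1. The ratio of these 2 genes was not compared with ratios of other gene pairs.

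Temperature and the sex-linked transcripts of the libraries cannot be told apart. Xist was at 9.71 to 15.3 scaled FPKM in all animals at 30 °C and at most 0.0139 in those at 22 °C, and the Y-linked Ddx3y at 16.3 to 23.9 in all animals at 22 °C and at most 0.0242 at 30 °C. Across all genes the temperature effect also followed GC content (Spearman's rho -0.58 in controls and -0.50 in knockouts over 13001 genes, which are not independent). Among the members Pearson's r with GC content was -0.72 and -0.76 (n = 10 genes), and Cyc1, Uqcrc1 and Uqcr11 have among the highest GC, 55.7, 57.5 and 58.9%. After removal of each library's length and GC trends 10 members were called in knockouts and 4 in controls, and the 4 were not all among the 5 named above. Of the 13079 tested genes, 5388 were called in knockouts and 2995 in controls in this setting, in either direction. Uqcrh and Uqcrq were still called in controls, Uqcrc2 (0.32, adjusted p = 0.193), Uqcrfs1 (0.37, adjusted p = 0.0733) and Uqcrb (0.21, adjusted p = 0.131) were not, and Uqcr10 (from 0.31 to 0.62, adjusted p = 0.00306) and Uqcr11 (from 0.11 to 0.60, adjusted p = 0.00404) were.

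Nuclear subunits of the other complexes were also lower in knockouts. The counts below stand beside 1.06% of all tested genes called lower at 22 °C and 5.28% at 30 °C. At 22 °C, 5 of 36 complex I subunits, 0 of 4 of complex II, 4 of 13 of complex IV and 4 of 15 of complex V were called lower in knockouts, with median log2 fold changes of -0.33, -0.21, -0.39 and -0.36. At 30 °C, 31 of 36, 3 of 4, 12 of 13 and 9 of 15 were called lower, with medians of -0.61, -0.65, -0.82 and -0.51. None was called higher. The complex III members, with 3 and 9 of 10 and medians of -0.29 and -0.62, lay within these values. Ndufa4, a small subunit of complex IV, was at 589 ± 54.8 scaled FPKM in 30 °C knockouts and 1340 ± 50 in 30 °C controls (SD, n = 3; log2 fold change -1.19, adjusted p = 0.000229 by limma). Atp5k, the e subunit of ATP synthase, was at 208 ± 8.5 and 496 ± 74.5 (SD, n = 3; -1.24, adjusted p = 0.000399 by limma).

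Factors that assemble complex III or attach haem to its cytochromes fell in part at 30 °C. Of 14 such genes, 0 were called at 22 °C by limma, and 6 at 30 °C, all lower, with medians of -0.12 and -0.33. Of all tested genes, 1.06% were called lower at 22 °C and 5.28% at 30 °C, so 0 of 14 at 22 °C is near the share of all genes. Those with the smallest adjusted p at 30 °C were Cox7a2l (log2 fold change -0.66, SE 0.12, adjusted p = 0.00428) and Immp2l, an inner membrane peptidase (-0.86, SE 0.181, adjusted p = 0.00897). Next came the assembly factor Uqcc3 (-0.64, SE 0.135, adjusted p = 0.00934) and Smim4 (-0.77, SE 0.196, adjusted p = 0.0202).

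Enzymes that feed electrons to ubiquinone or straight to cytochrome c also fell in part at 30 °C. Of 12 beside complexes I and II, 0 were called at 22 °C by limma and 6 at 30 °C, all lower, with medians of -0.04 and -0.65. The shares of all tested genes called lower were 1.06% and 5.28%, so 0 of 12 at 22 °C is near the share of all genes. Ldhd, which oxidises D-lactate, was at 29.9 ± 5.72 scaled FPKM in 30 °C knockouts and 66.9 ± 6.86 in controls (SD, n = 3; log2 fold change -1.15, adjusted p = 0.00191 by limma). Etfb, a subunit of the flavoprotein that collects electrons from fatty acid oxidation, was at 1230 ± 298 and 2240 ± 176 (SD, n = 3; -0.90, adjusted p = 0.00561 by limma). Sqor, which oxidises sulfide, had a log2 fold change of -0.67 (adjusted p = 0.0127) and Dhodh, of pyrimidine synthesis, -0.48 (adjusted p = 0.0147).

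Of 12 genes that control the release of cytochrome c, or act after it in apoptosis, 0 were called in knockouts against controls at 22 °C by limma and 2 at 30 °C, both higher, a share of 16.7% near the 14.1% of all genes called there. They were the anti-apoptotic Mcl1, at 114 ± 15 scaled FPKM in knockouts and 53.8 ± 4.79 in controls (SD, n = 3; log2 fold change 1.06, adjusted p = 0.00217 by limma), and Bcl2 (0.65, SE 0.147, adjusted p = 0.0117), which was below 3 scaled FPKM. The macrophage markers given above were higher in the same animals, and their part in this was not tested.

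Among 11 regulators of nuclear respiratory genes, 1 was called at each temperature, both higher. At 30 °C that is 9.09%, near the 8.82% of all genes called higher, and at 22 °C 0.91% of all genes were called higher. Ppargc1a, a coactivator that drives mitochondrial biogenesis, was at 33.9 ± 11.5 scaled FPKM in 22 °C knockouts and 14.9 ± 5.62 in 22 °C controls (SD, n = 4; log2 fold change 1.14, SE 0.258, adjusted p = 0.0411 by limma). Yy1, a transcription factor, had a log2 fold change of 0.44 at 30 °C (SE 0.107, adjusted p = 0.0155 by limma).

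Over the 14 libraries, the genes whose log2 level was most like the mean of the 9 subunits were Atp5j2 (Pearson's r = 0.995), Cox8a (0.994), Cox6b1 (0.989), Ndufb4 (0.988) and Cox7c (0.987), all subunits of other respiratory complexes. After the group means were subtracted, Atp5j2 (0.942) and Cox8a (0.938) still led, followed by Mpc2 (0.929), Hsd17b10 (0.926) and Ndufs8 (0.908). The profile of Cycs was closest to Ndufa9 (0.987), Ndufab1 (0.98), Cidea (0.974), Suclg1 (0.973) and Tmem14c (0.967), and after subtraction to Tmem14c (0.943), Ndufa9 (0.936), Pex2 (0.91), Ndufab1 (0.904) and Ndufa10 (0.902). Among the members themselves, the 45 pairs had a median r of 0.801 (0.162 to 0.98) over the 14 libraries, which share groups and scaling. Within groups, pairs of short members had a median r of 0.709, pairs of long members 0.692 and mixed pairs 0.253. The closest within-group pair was Uqcr10 with Uqcr11 (0.961), and each was the other's nearest gene among those tested.

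Little signal was assigned to near copies of the members. Annotated transcripts with at least 94% identity over at least 150 bases were found for 6 members. The highest copy in any library was at 18.4 FPKM for Uqcr11 (Gm16418), 17.03 for Cycs (Gm10053), 8.65 for Uqcr10 (the antisense gene 4930481A15Rik) and 5.26 for Uqcrb (Gm2962), and below 0.3 for Uqcrc2 and Uqcrh. How reads that fit both a member and its copy were assigned is not given in the sources used here. The values of the copies therefore cannot show how much signal was shared. The use of strand is not given either, so Uqcr10 reads and those of its antisense gene may be mixed.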

How the data were processed

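RNA sequencing of brown adipose tissue from 14 mice was used as the authors deposited it, as FPKM per Ensembl gene. The submitters' processing notes name the genome build mm9; the aligner, the counting, the use of strand and the annotation are not given in the sources used here. Symbols, transcript length and GC content came from GENCODE M21, which matched 34490 of 35275 identifiers, and promoters from RefSeq (GRCm38.p6). Depth was found from the step between low FPKM values: 93.0 to 94.5% of values of up to 6 reads were whole reads within 0.1 read. Counting error at that depth covers only sampling of reads.

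Genes with at least 1 FPKM in at least 3 libraries (13079) were kept. Libraries were scaled by their median ratio over 10049 nuclear genes, with factors of 0.836 to 0.955 in knockouts and 1.056 to 1.216 in controls. limma 3.58.1 (R 4.3.3) fitted 4 group means to log2(scaled FPKM + 1) over all libraries, with eBayes and a mean-variance trend; the pseudocount of 1 understates changes of low genes. The fit was tested on simulated data. Lrpprc and mt-Cytb were also compared by exact permutation tests. Replicates are numbered in accession order. Alternatives changed the pseudocount (0.1), the filter, the scaling, the fit, the animals and the minimum change. Near copies were searched for with blastn 2.17.0, and the remaining steps ran in Python 3.11.15 with pandas 2.3.3 and matplotlib 3.10.9.

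The members and gene lists were chosen with earlier results of these data known. Every member is named; genes of other lists are named where called, at most 4 per list and comparison by smallest adjusted p, and the 5 nearest genes by correlation.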

Additional observations from a re-analysis of the deposited data

Results flagged for a closer look

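In 22 °C control replicate 4, Uqcr11 was at 1329 scaled FPKM, whereas the other 3 controls were at 919 to 971. The gap was 0.873 of the range of the 4 animals, above Dixon's 95% critical value for groups of 4. It was the 1 such value among 44 groups examined (the 10 members and mt-Cytb, by level and by ratio to the subunit mean, in both 22 °C groups), and chance flags about 1 in 20 groups. The same library had the highest short-to-long transcript balance (0.36) and the lowest sample weight in limma (0.235, against 0.504 to 2.884 in the other libraries). Its part in the Uqcr11 result at 22 °C is measured by leaving it out: the log2 fold change was then -0.54 (adjusted p = 0.0819).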

How the results depend on the processing

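At 22 °C the knockout result depended on the setting. The 3 calls became 0 with no filter on low values, with FPKM as deposited, with quantile normalization, with only the groups compared in the fit, and with a minimum log2 fold change of 1, and 1 with libraries set to the same nuclear total; leaving out animals gave 0 to 2. The members' median was 0.011 as deposited, -0.067 after quantile normalization and -0.15 with the same nuclear total. As deposited, Uqcrc1 (0.13), Uqcrc2 (0.22), Uqcrfs1 (0.098), Cyc1 (0.082) and Cycs (0.086) lay above 0, as did Uqcrc1 (0.042), Uqcrc2 (0.23), Uqcrfs1 (0.082) and Cyc1 (0.019) after quantile normalization, and Uqcrc2 with the same nuclear total (0.057) or without control replicate 1 (-0.26 to 0.060 over the animals left out). At 30 °C the 9 calls became 3 as deposited, 3 after quantile normalization, 5 with the same nuclear total and 1 with a minimum log2 fold change of 1, and 3 to 9 without single animals; the median was -0.33, -0.40 and -0.47 under the 3 scalings. Relative to the median of all genes, the members' median was -0.40 to -0.07 at 22 °C over 21 settings and -0.80 to -0.36 at 30 °C over 19.

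Between temperatures, the 5 calls in controls became 2 with no filter, 2 as deposited, 3 after quantile normalization, 2 with only the groups compared and 0 with a minimum change of 1, and 1 to 5 without single animals; the 7 in knockouts became 2 with a minimum change of 1. Length and GC correction turned Uqcrc1 (0.28), Cyc1 (0.046) and Cycs (-0.051) in controls. Uqcr11 in controls turned with sample weights (-0.020), without the 2 controls with R identifiers (-0.011) and without 22 °C control replicate 4 (-0.013 to 0.18 over the animals left out). Cyc1 in knockouts turned as deposited (-0.063), after quantile normalization (-0.15) and without 22 °C knockout replicate 3 or 30 °C knockout replicate 1 (-0.078 to 0.16 over the animals left out). The cause was not tested.

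Over all genes, 258 were called at 22 °C (119 higher), but 3248 as deposited (3167 higher), 461 with the same nuclear total (386 higher), 130 without a filter and 83 with only the groups compared. At 30 °C 1845 were called (1154 higher), 4571 as deposited (4280 higher), 2634 with the same nuclear total (2225 higher) and 1822 after quantile normalization (887 higher). Without single animals, 70 to 272 genes were called at 22 °C and 877 to 2243 at 30 °C. Between temperatures in controls 5072 were called, and 3495 to 5738 without single animals. No paired analysis was possible because the labels give no replicate numbers. Each member was covered by at least 1950 fragments in every library, so counting error was small against the group differences called.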
